A study of Homo sapiens with 12 samples.

Results

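FTH1 and BEST1 are a pair of genes that overlap on opposite strands of chromosome 11. FTH1 encodes the heavy chain of ferritin, and BEST1 encodes a chloride channel. Both rows were taken by their symbols from a table of read counts, so the pair is 2 of the 61255 rows of the table. The table came from RNA sequencing of Huh-7.5, a human hepatoma line in long use. Its cells carried the proximity-labelling peroxidase APEX2 in 1 of 3 versions, named APEX-NES, APEX-NLS and APEX-G3BP1 in the labels and NES, NLS and G3BP1 here. NES usually stands for a signal for export from the nucleus and NLS for one that directs import, while G3BP1 is a core protein of stress granules. The lines were sampled mock-treated or after 45 minutes in sodium arsenite at 0.5 mM, with 2 numbered libraries per line and treatment and 12 in all. All 6 groups carried an APEX2 construct, so no parental Huh-7.5 cells were compared here. The labels do not say whether a line is 1 clone or whether the 2 replicates of a group came from separate cultures. P-values therefore measure the spread between these libraries, which may be technical.

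Ferritin is a shell of heavy and light chains (FTH1 and FTL) that stores iron inside the cell. The heavy chain is a ferroxidase, which oxidizes ferrous iron so that it can be laid down in the shell. When iron is short, the iron regulatory proteins ACO1 and IREB2 bind a hairpin in the 5′ untranslated region of both ferritin mRNAs, the iron-responsive element, and block their translation. Oxidative stress is known to raise ferritin transcription through the transcription factor NRF2 (NFE2L2), and liver cells are a main site of iron storage. BEST1, or bestrophin-1, is a calcium-activated chloride channel best known from the retinal pigment epithelium, where its mutations cause Best vitelliform macular dystrophy.

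The hairpin loop lies in exon 1 of the main FTH1 transcript (ENST00000273550), which no annotated BEST1 exon covers. It is shown beside the matching stretch of the FTL transcript (ENST00000331825), the light chain on chromosome 19. Sequences and positions are from GENCODE 29 on GRCh38, written 5′ to 3′ on the strand of the gene, and capitals mark the loop, CAGTGN. That motif occurred 1 time on the sense strand of the 235 bases of the FTH1 5′ untranslated region and 1 time in the 207 bases of that of FTL.
FTH1, chr11:61967573-61967602, minus strand: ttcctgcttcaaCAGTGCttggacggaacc
FTL, chr19:48965335-48965364, plus strand: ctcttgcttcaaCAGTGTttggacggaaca

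The coding sequence of FTH1 also starts in exon 1, and its first 114 bases are the stretch of coding sequence that belongs to FTH1 alone. Capitals mark the start codon.
FTH1, chr11:61967312-61967425, minus strand: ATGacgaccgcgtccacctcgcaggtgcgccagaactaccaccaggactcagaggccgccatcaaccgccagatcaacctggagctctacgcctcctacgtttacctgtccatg

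From exon 2 onwards FTH1 runs opposite to BEST1. FTH1 (ENSG00000167996) spans chr11:61959718-61967660 on the minus strand, with 12 transcripts, and BEST1 (ENSG00000167995) spans chr11:61949821-61965515 on the plus strand, with 8 transcripts. The gene bodies overlap by 5798 bases. Merged over transcripts, FTH1 has 2030 exonic bases and BEST1 has 8930, of which 1267 are shared. These are 62.4% of the FTH1 exons and 14.2% of the BEST1 exons. In the main FTH1 transcript (1229 bases in 4 exons, 549 of them coding before the stop codon), exons 2, 3 and 4 of 147, 126 and 607 bases all lie inside exon 9 of the long BEST1 transcript (ENST00000449131), a last exon of 3261 bases. The 880 shared bases are 71.6% of this FTH1 transcript and 20.6% of the long BEST1 transcript. The principal BEST1 transcript (ENST00000378043), whose last exon is shorter, shares 177 bases with it, or 6.46% of its length.

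**Figure D1:**
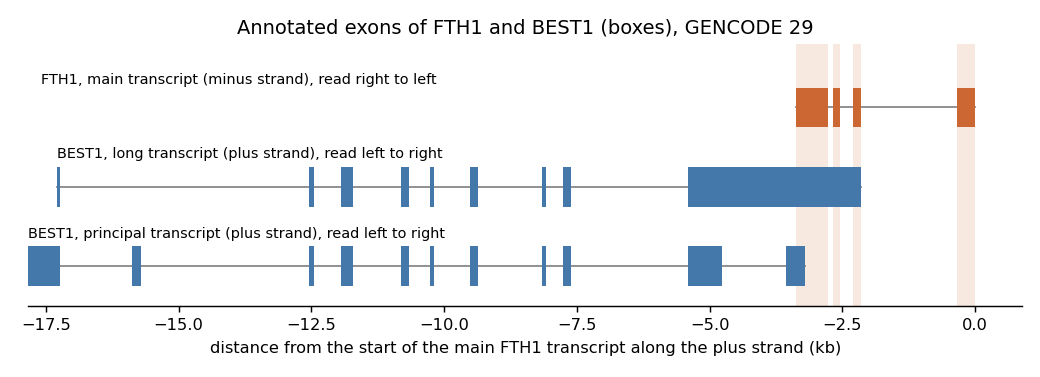
Exons (boxes) and introns (lines) of the main FTH1 transcript (orange) and of the long and the principal BEST1 transcript (blue), plotted by distance in kb from the start of FTH1 along the plus strand, with the FTH1 exons shaded through all rows. Exons 2 to 4 of FTH1 fall inside the last exon of the long BEST1 transcript, and exon 1 falls outside every BEST1 exon.

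The libraries were made with a directional kit, which marks the strand of the RNA, after depletion of ribosomal RNA. The strand setting used when reads were assigned to genes is not given in the sources used here. It is therefore not known which of the 2 rows, if either, holds the reads of FTH1 mRNA over the shared exons. Each level belongs to a row of the table rather than to a proven transcript. The same limit holds for every other row named here, including FTL, the other iron genes and the cell type markers, so a change is that of a row. The 12 libraries held between 1090308 and 1461067 counts. With 3 counts taken as the smallest level a library could show, the floor was between 2.08 and 2.88 CPM, where CPM are counts relative to the library total after TMM scaling. Such floors cover counting error only, since several reads may come from 1 molecule.

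The BEST1 row was among the largest of the table, and the FTH1 row was small beside it. Summed over libraries, BEST1 held 164920 counts and FTH1 held 267, a ratio of 618. BEST1 took between 0.901% and 1.28% of all counts and ranked at place 3 or 4 in every library. FTH1 ranked between place 5372 and place 9543, in a table where 38431 rows had at least 1 count. Per kilobase of merged exons, the group means of BEST1 lay between 1035 and 1546 CPM per kb and those of FTH1 between 5.74 and 12.8 CPM per kb.

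The BEST1 row rose after arsenite in each of the 3 lines by nearly the same amount. It held 12323 and 12138 counts in the mock NES libraries and 15783 and 11828 in the arsenite NES libraries. In the NLS line it held 12537 and 11497 counts after mock treatment and 14588 and 15725 after arsenite. In the G3BP1 line it held 11952 and 12976 counts after mock treatment and 15503 and 18070 after arsenite. The second arsenite library of NES was the shallower of its pair, and on the CPM scale it was no longer below the mock libraries. In CPM, BEST1 went from 9239.5 ± 231 (SD, n = 2) to 10858 ± 617 in NES, from 9256 ± 676 to 10976 ± 116 in NLS and from 11702 ± 307 to 13803 ± 728 in G3BP1. Within each line both arsenite libraries lay above both mock libraries. Across lines the treatments overlapped, since the highest mock value (11919 CPM, G3BP1) was above the lowest arsenite value (10421 CPM, NES).

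Averaged over lines, the log2 fold change of BEST1 was 0.24 (SE 0.035, 95% interval 0.16 to 0.32), a 1.18-fold rise with an adjusted p of 8.77e-09 by edgeR's quasi-likelihood test with Benjamini-Hochberg adjustment over 13108 genes. DESeq2 gave an adjusted p of 1.85e-11. The share of tested genes called in this comparison was 38.0%, and 19.4% were called and higher after arsenite, so a call alone did not set BEST1 apart. Its log2 fold change stood at percentile 73.3 of the tested genes. By line, NES gave 0.23 (SE 0.059, edgeR adjusted p = 0.00148), NLS gave 0.25 (SE 0.059, adjusted p = 0.000987) and G3BP1 gave 0.24 (SE 0.059, adjusted p = 0.00140). The shares of tested genes called in those lines were 20.3%, 17.8% and 16.4%. The 3 estimates spanned 0.013 on the log2 scale, and a joint edgeR test of the difference among lines gave an adjusted p of 0.999, in a comparison where 0.183% of genes were called. The calls in NLS and G3BP1 each rested on single libraries: the edgeR adjusted p was 0.158 in NLS without its second mock library (log2 fold change 0.16), and 0.0726 and 0.0595 in G3BP1 without its first mock or its second arsenite library.

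The FTH1 row rose by more than the BEST1 row on average, from far fewer counts. It held 19 and 12 counts in the mock NES libraries and 34 and 25 in the arsenite NES libraries. In NLS it held 15 and 19 counts after mock treatment and 23 and 26 after arsenite. In G3BP1 it held 11 and 20 counts after mock treatment and 30 and 33 after arsenite. The lowest arsenite count, 23, was above the highest mock count, 20, but after scaling for depth the treatments overlapped across lines, from 17.4 CPM (NLS, arsenite) to 18.4 CPM (G3BP1, mock). FTH1 went from 11.6 ± 3.32 CPM (SD, n = 2) to 23.2 ± 1.63 in NES, from 13.1 ± 2.02 to 17.7 ± 0.409 in NLS and from 14.5 ± 5.52 to 25.9 ± 0.306 in G3BP1. Within each line both arsenite libraries again lay above both mock libraries, an order found in all 3 lines for 12.5% of the tested genes. Counting error alone was 17.8% to 25.4% of the group mean of FTH1 and below 1% of that of BEST1.

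**Figure D2:**
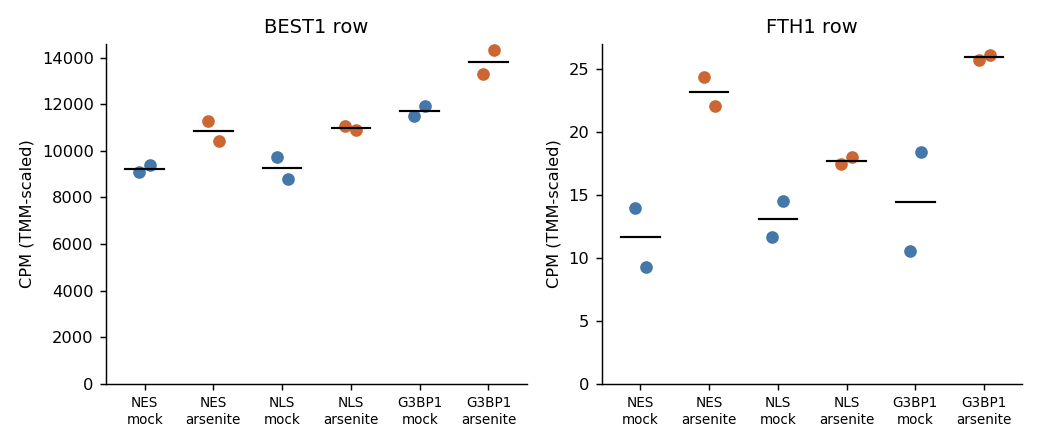
CPM of the BEST1 row (left) and of the FTH1 row (right) in each library (points; blue mock, orange arsenite) and the mean of each group (lines), on linear axes that start at 0 and differ between panels. In each line both arsenite points are above both mock points, and the 2 rows differ in level by between 464 and 1087 times in counts.

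Averaged over lines, the log2 fold change of FTH1 was 0.76 (SE 0.19, 95% interval 0.32 to 1.19), a 1.69-fold rise with an edgeR adjusted p of 0.000651 and a DESeq2 adjusted p of 0.00811. It stood at percentile 91.3 of the tested genes. In the single lines the estimate was 0.99 (SE 0.32, edgeR adjusted p = 0.0174) in NES, 0.44 (SE 0.33, adjusted p = 0.395) in NLS and 0.83 (SE 0.32, adjusted p = 0.0582) in G3BP1. With edgeR only the NES estimate passed the threshold of 0.05, and it did not pass with DESeq2 (adjusted p = 0.169), with no filter on low counts (edgeR adjusted p = 0.0509), without the second mock library (0.201) or without the first arsenite library (0.126). In G3BP1 the estimate was 1.30 without the second mock library (edgeR adjusted p = 0.0351) and 0.48 without the first (edgeR adjusted p = 0.500). In NLS it was 0.28 without the first mock library. The lines were not shown to differ: the estimates spanned 0.55, and the joint edgeR test gave an adjusted p of 0.893. The 95% interval in NLS ran from -0.37 to 1.24 and so held both no change and the estimates of the other lines.

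The lines differed before arsenite in the BEST1 row. Mock G3BP1 libraries were above the mean of the mock NES and NLS libraries by 0.34 on the log2 scale (SE 0.051, 95% interval 0.22 to 0.46), with an edgeR adjusted p of 1.43e-08 and a DESeq2 adjusted p of 1.03e-09. This 1.27-fold difference was larger than the average arsenite effect on the row, and 18.9% of tested genes were called in the comparison. Mock NES and NLS did not separate for BEST1 (log2 difference 0.0026, 95% interval -0.14 to 0.15, edgeR adjusted p = 0.986), where 6.92% of genes were called. The order of the BEST1 group means was NES mock, NLS mock, NES arsenite, NLS arsenite, G3BP1 mock and G3BP1 arsenite. For FTH1 the mock difference of G3BP1 was 0.23 (95% interval -0.56 to 1.02, edgeR adjusted p = 0.692) and that of NLS against NES was 0.16 (95% interval -0.73 to 1.05, edgeR adjusted p = 0.876), so a difference as large as that of BEST1 was not detectable at its depth. Line and construct are the same thing here, so what the construct does and what else sets a line apart cannot be told apart.

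**Figure D3:**
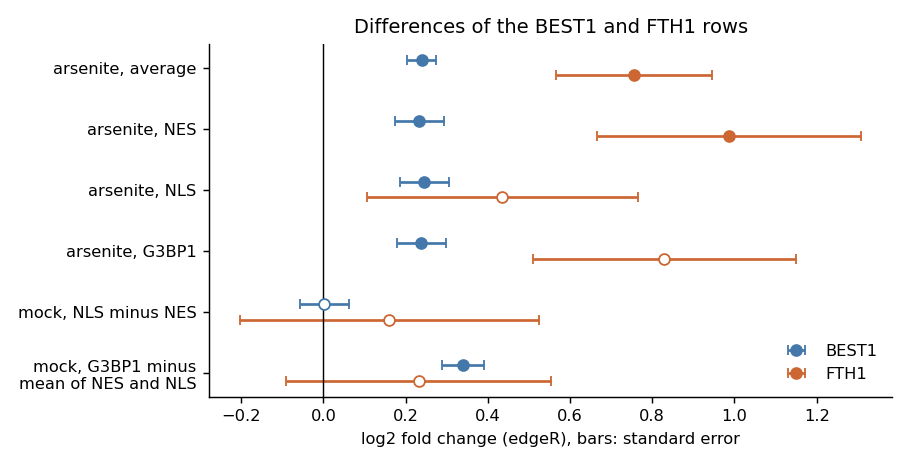
Log2 fold changes of BEST1 (blue) and FTH1 (orange) from edgeR, with bars of 1 standard error, for the arsenite effect averaged over lines and in each line and for the differences between mock lines. Filled points have an adjusted p under 0.05: BEST1 in every arsenite comparison and in the mock G3BP1 comparison, and FTH1 in the average and in NES.

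The balance between the rows moved toward FTH1 after arsenite. The share of FTH1 in the summed counts of both rows was 0.154% and 0.0988% in the mock NES libraries and 0.215% and 0.211% after arsenite. It was 0.120% and 0.165% in mock NLS libraries against 0.157% and 0.165% after arsenite. In G3BP1 it was 0.0920% and 0.154% after mock treatment and 0.193% and 0.182% after arsenite. In NES and G3BP1 both arsenite shares were above both mock shares, while the NLS groups overlapped. Each share has a wide 95% Wilson interval, for example 0.0514% to 0.165% in the lowest library and 0.154% to 0.300% in the highest.

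In counts, BEST1 exceeded FTH1 by between 464 and 1087 times in single libraries, or by between 105.5 and 247.0 times per kilobase of exons. The log2 ratio of BEST1 to FTH1 counts (0.5 added to each) was 9.57 ± 0.350 (SD, n = 6) in mock and 9.04 ± 0.181 (SD, n = 6) in arsenite libraries. The mean difference over lines was -0.53, lower in 5 of 6 same-numbered pairs, with a two-sided exact permutation p of 0.0278 over 216 relabellings within lines, where the smallest possible p was 0.00926. This ratio does not depend on how the libraries were scaled. Replicate numbers did not pair libraries, and permuting labels within same-numbered pairs gave an exact p of 0.0625. By line, NES moved by -0.77, NLS by -0.19 and G3BP1 by -0.63. Leaving out either arsenite library of NES or of G3BP1 raised the exact permutation p to 0.0556 with fewer relabellings, while the difference stayed between -0.54 and -0.51.

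**Figure D4:**
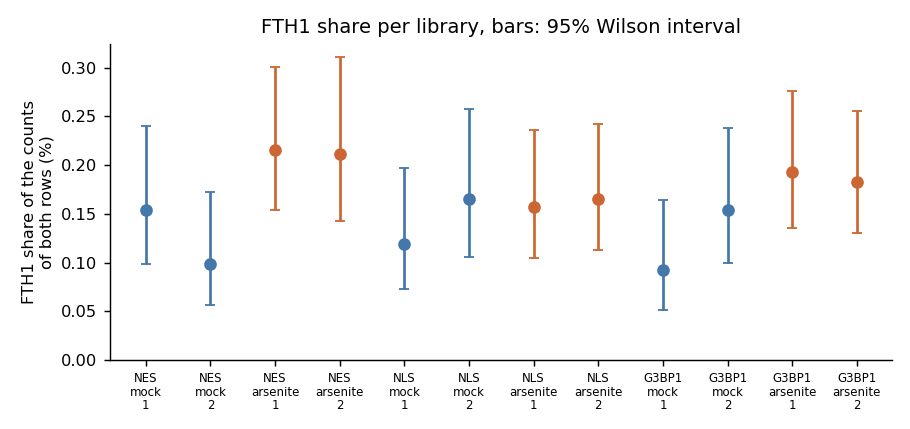
Share of FTH1 in the summed counts of FTH1 and BEST1 in each library (points; blue mock, orange arsenite) with 95% Wilson intervals, which cover counting error only. The lowest share is 0.0920% (G3BP1 mock 1) and the highest is 0.215% (NES arsenite 1), and the NLS mock and arsenite points overlap.

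Within a treatment, libraries with more BEST1 did not clearly hold more FTH1. Over the 6 mock libraries, Pearson's r between the CPM of the rows was 0.302 (exact permutation p = 0.533) and Spearman's rho was 0.0286 (p = 1, exact permutation). Over the 6 arsenite libraries r was 0.731 (exact permutation p = 0.0639, 0.128 after adjustment for both treatments) and rho was 0.771 (exact permutation p = 0.103). In both treatments the 2 libraries farthest from the median of BEST1 were those of the G3BP1 line, the line with the higher BEST1 level. Without them r was -0.71 in mock and 0.0857 in arsenite libraries, so the arsenite relation rested on that line.

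Over all 12 libraries and 6520 other rows that averaged 20 CPM or more, the rows whose log2 CPM followed BEST1 most closely were HCG20 (r = 0.972), ENSG00000230021 (r = 0.958) and ENSG00000267383 (r = 0.958). ENSG00000230021 was itself a large row, with 5111 to 8068 counts, and rose by 0.20 on the log2 scale (SE 0.036, edgeR adjusted p = 1.18e-06). The rows most like FTH1 were ENSG00000289033 (r = 0.932), SLC35A1 (r = 0.928) and CD74 (r = 0.925). SLC35A1 carries CMP-sialic acid into the Golgi, and CD74 is the invariant chain of MHC class II. CD74 rose by 1.13 on the log2 scale (SE 0.16, edgeR adjusted p = 3.07e-09) and held 14 to 71 counts per library. These correlations include the differences between treatments and lines and the shared depth of the libraries, and the rows were picked as the highest of many.

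FTL, the light chain that forms the ferritin shell with FTH1, had a level and an average rise close to those of FTH1. FTL held 11 to 25 counts in mock and 16 to 48 in arsenite libraries, and its log2 fold change was 0.78 (SE 0.20, edgeR adjusted p = 0.000968, DESeq2 adjusted p = 0.0157). It was 8.84 and 8.52 CPM in mock NES libraries against 25.05 and 15.9 after arsenite. In NLS it was 12.4 and 16.03 CPM against 36.4 and 20.1, and in G3BP1 24.02 and 11.9 CPM against 13.7 and 25.4. The NES and NLS groups of FTL did not overlap, while the G3BP1 groups did, which was not the pattern of FTH1. The line estimates for FTL were 1.25, 0.97 and 0.14 in that order, and their differences were not tested.

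Of the 36 other genes of iron handling in the list used here, 17 passed the filter on low counts. Of these 5 rose and 1 fell, with a median log2 fold change of 0.24, against 2544 that rose and 2442 that fell among all 13108 genes tested and a median of -0.012. Beside FTL, the genes that rose were CP, BMP6, HFE and HMOX2. CP encodes ceruloplasmin, a secreted ferroxidase that helps iron leave cells, and rose by 0.50 (SE 0.083, edgeR adjusted p = 3.37e-07), from 87.0 ± 12.3 to 124 ± 15.4 CPM (SD, n = 6). HFE, a regulator of hepcidin, rose by 1.02 (SE 0.33, edgeR adjusted p = 0.00987) and held 2 to 17 counts per library. BMP6, the signal that induces hepcidin, rose by 0.24 (SE 0.059, edgeR adjusted p = 0.000561). HMOX2, the constitutive heme oxygenase, was called by edgeR at a log2 fold change of 0.41 (adjusted p = 0.0205) but not by DESeq2 (adjusted p = 0.0804). STEAP3, which reduces ferric iron in endosomes, fell by 1.17 on the log2 scale with 1 to 15 counts (edgeR adjusted p = 0.0243, DESeq2 adjusted p = 0.0898).

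Other genes that govern ferritin and iron uptake were not called. ACO1 and IREB2, the iron regulatory proteins, stood at -0.013 (SE 0.15) and 0.47 (SE 0.29) on the log2 scale, with edgeR adjusted p of 0.957 and 0.190. NCOA4, the receptor that delivers ferritin to autophagy, had 0.21 (SE 0.10, edgeR adjusted p = 0.0977). TFRC, the transferrin receptor, held 1 to 7 counts and was not tested. The mitochondrial ferritin FTMT and the testis ferritin FTHL17 were at 0 in all 12 libraries.

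**Figure D5:**
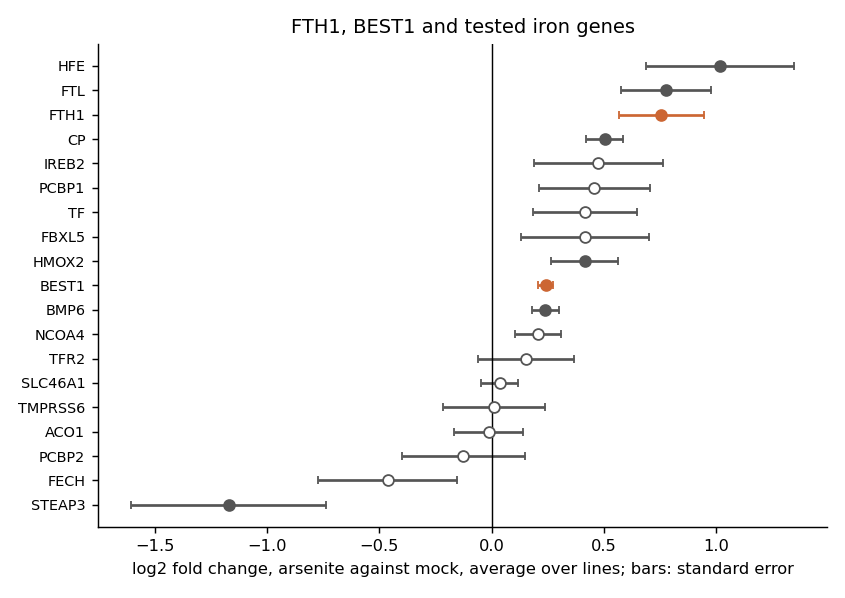
Log2 fold change after arsenite, averaged over lines, for FTH1 and BEST1 (orange) and the 17 tested genes of the iron list (grey), with bars of 1 standard error from edgeR and filled points for an adjusted p under 0.05. FTH1 (0.76) lies next to FTL (0.78), BEST1 (0.24) has the narrowest error, and STEAP3 (-1.17) is the lowest.

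Most known targets of NRF2 held few counts, and the ferritin chains were small rows too (11 to 34 counts for FTH1, 11 to 48 for FTL). In a list of 13 genes, FTL included, 4 were tested and FTL alone was called by edgeR, beside 38.0% of all tested genes, with a median log2 fold change of 0.057. NFE2L2, which encodes NRF2, held 2879 to 3885 counts and changed by -0.057 (SE 0.037, edgeR adjusted p = 0.225). NQO1, a quinone reductase, held 37 to 73 counts and had -0.024 (SE 0.13, edgeR adjusted p = 0.900). HMOX1, the inducible heme oxygenase, held 1 to 4 counts in mock and 1 to 4 in arsenite libraries, which is at or near the floor. SLC7A11, the cystine transporter, was not tested, with 0 or 1 count in each mock library and 1 to 6 in each arsenite library. MAFG, a partner of NRF2 on DNA, held 0 or 1 count in mock and 0 to 4 in arsenite libraries and was not tested either.

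A large opposite-strand row beside a small row was also found at other iron and oxidative stress genes. Rows with exons opposite to those of a listed gene existed for 13 genes of these lists, in 15 pairs, and the opposite row held more counts in 9 pairs and fewer in 6. It held over 10 times as many counts in 7 pairs. No such share was computed for all opposite-strand pairs of the table, so these counts are not shown to be particular to these lists. The exons shared ran from 7 bases (GCLC, 1 of those 7 pairs) to 4421 bases (SLC46A1 with SARM1), against 1267 for FTH1 and BEST1. PCBP1, an iron chaperone that loads ferritin, held 4 to 19 counts and PCBP1-AS1 2472 to 3643, a ratio of 229. PCBP2, its relative, held 7 to 18 counts and MAP3K12, a kinase, 1191 to 2180, a ratio of 165. PCBP1-AS1 rose by 0.16 (SE 0.037, edgeR adjusted p = 0.000210) and MAP3K12 rose by 0.27 (SE 0.039, edgeR adjusted p = 4.15e-09). Not all opposite rows rose: SARM1 (634 to 999 counts), opposite to the folate transporter SLC46A1, fell by 0.16 (SE 0.045, edgeR adjusted p = 0.00272). STEAP3-AS1 (-0.021, 47 to 109 counts), SLC7A11-AS1 (0.035, 37 to 170 counts) and ENSG00000249379 opposite to GCLC (0.022, 110 to 182 counts) were not called. These rows are smaller, with SE between 0.077 and 0.11, so a rise as small as that of PCBP1-AS1 could be missed. The reverse order occurred at CP, with 86 to 176 counts against 1 to 10 for HPS3, a lysosomal trafficking gene, and at NFE2L2, with 14 to 50 for AGPS, an ether lipid enzyme. Counting on the strand opposite to the annotated one would place reads of FTH1 mRNA over the shared exons in the BEST1 row. Whether reads were assigned in that way, and whether it has a part in these ratios or in any level given here, was not tested.

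FTH1 has many processed copies in the genome, and reads can be divided among them. The table had 25 rows of FTH1 copies, all of which aligned to the main FTH1 transcript in the same orientation with 74.8% to 98.1% identity. Identity holds for the aligned part only, between 13.3% (FTH1P15) and 55.8% (FTH1P26) of that transcript. Together they held 856 counts in mock and 776 in arsenite libraries, and 8 of them were at 0 in every library. Of the 5 that passed the filter on low counts, none rose and 2 fell, beside 38.0% of all tested genes called in either direction. FTH1P4 (95.1% identity) fell by 0.63 on the log2 scale (SE 0.16, edgeR adjusted p = 0.000692) and FTH1P1 (93.0% identity) by 0.50 (SE 0.18, edgeR adjusted p = 0.0188, DESeq2 adjusted p = 0.0816). FTH1P20, with 97.8% identity, held 15 to 29 counts, within the range of FTH1 itself, with a log2 fold change of -0.31 (edgeR adjusted p = 0.192). How reads that match several copies were counted is not given in the sources used here, so the FTH1 level is uncertain in this respect, and its part in the rise was not tested.

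The 3 other bestrophins did not pass the filter on low counts. BEST2 held 0 to 10 counts, BEST3 0 to 2 and BEST4 1 to 11, against 11497 to 18070 for BEST1. Of the 10 nearest genes that averaged 1 CPM or more, 5 on each side of the pair, 8 were tested, 3 rose and 1 fell, beside 38.0% of all tested genes called in either direction, with a median log2 fold change of 0.11. FADS3 (2.62, SE 0.32) and FADS2 (0.16, SE 0.048), members of the fatty acid desaturase cluster, and FEN1 (1.01, SE 0.11), a flap endonuclease of DNA replication, rose with edgeR adjusted p of 1.73e-11, 0.00373 and 8.46e-14. TMEM258, a subunit of the oligosaccharyltransferase, fell by 0.52 (SE 0.074, edgeR adjusted p = 3.84e-09). FADS1, with 1324 to 1910 counts, had 0.061 (SE 0.040, edgeR adjusted p = 0.231). The gene just upstream of FTH1, ENSG00000279491, lies 134 bases away on the plus strand and held 1 to 11 counts.

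Rows of cell type markers were set beside the label of the line, and they did not settle it. The summed hepatocyte rows (193 to 415 counts per library) were close to those of the retinal pigment epithelium list (183 to 323). Because the strand setting is not given, these rows are no check of the label. Of 9 hepatocyte markers, 8 passed the filter on low counts, yet their rows were small: ALB held 11 to 29 counts, AFP 25 to 95, APOB 77 to 145 and TTR 0 or 1. Their summed level was 193 to 324 counts in mock and 257 to 415 in arsenite libraries, and AFP and FGB rose. Beside these and the marker calls below, 38.0% of all tested genes were called and 19.4% were called and higher after arsenite. Of 8 markers of the retinal pigment epithelium, where BEST1 is best known, 3 passed that filter. RPE65 was at 0 in all libraries and MITF and LRAT held at most 1 count. PMEL, also a marker of that list, held 168 to 285 counts and RLBP1 4 to 60. Their summed level was 183 to 297 counts in mock and 210 to 323 in arsenite libraries, and RLBP1 (9.91 to 28.2 CPM, edgeR adjusted p = 1.27e-10) and PMEL (164 to 186 CPM, edgeR adjusted p = 0.0241, but DESeq2 adjusted p = 0.0816) rose. Of 6 erythroid markers none passed, with HBB at 0 and a summed level of 2 to 9 counts in mock and 5 to 21 in arsenite libraries. Of 5 macrophage markers CD68 alone passed, and it fell by 0.60 (edgeR adjusted p = 0.00673), with MARCO at 0 and a summed level of 24 to 31 counts in mock and 14 to 27 in arsenite libraries. The part of these marker rows in the levels of FTH1 and BEST1 was not tested, and in bulk RNA fewer cells of a kind and less RNA per cell cannot be told apart.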

How the data were processed

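The values are raw counts as deposited by the authors in 1 table, whole numbers whose column totals differ. Trim Galore, Subread, featureCounts, edgeR and the build GRCh38.p13 are named in the submitters' processing notes; the annotation and the strand setting are not given in the sources used here. Libraries were grouped by the sample titles, and 4 columns that matched no sample were not used. Counts were tested with edgeR 4.0.16 in R 4.3.3 on the whole table (TMM, filterByExpr with a minimum count of 10 and a minimum total of 15, quasi-likelihood F test, Benjamini-Hochberg adjustment, threshold 0.05), which left 13108 genes. The average effect had line as an additive term (8 residual degrees of freedom) and all other contrasts 1 mean per group (6). The fits were tested on simulated counts. Alternatives were DESeq2 1.42.0, other size factors and filters, a replicate block and leaving out libraries. Exact permutation tests used SciPy 1.17.1. Positions, exon lengths and sequences came from GENCODE 29. Members, lists and tests were chosen with earlier results of these data known. Named genes were the called genes of the fixed lists averaging 1 CPM or more, the 5 nearest rows on each side at that level, the 3 rows most like each member and the marker genes. Other listed genes were named after their values were seen.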

Additional observations from a re-analysis of the deposited data

How the results depend on the processing

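Of 358 alternative values over 18 results, 337 kept their direction and their side of the threshold or, for gene counts, stayed within 1.5 times. Another 13 lost the threshold, 4 passed it or rose past 1.5 times and 4 changed sign. Not all of them could change: the spans among lines have no sign, and scaling per kilobase cannot move the ratio difference. Leaving out a library of another line also moves an estimate within a line only slightly. The average rise of BEST1 (0.19 to 0.27 over 21 alternatives) and of FTH1 (0.65 to 0.84) held in every one, including an exact permutation of log2 CPM within lines chosen after seeing the data (p = 0.00926 for both, the smallest it can give). Replicate numbers did not pair libraries: deviations correlated at -0.056, -0.014 and 0.0091 in NES, NLS and G3BP1. With a replicate block within lines the average log2 fold change was 0.24 for BEST1 and 0.75 for FTH1. Permuting labels within same-numbered pairs, as a replicate block, left the ratio difference at -0.53 with an exact p of 0.0625 over fewer relabellings. Leaving out both second arsenite libraries of NES and NLS gave -0.52 (exact permutation p = 0.0926), and leaving out 1 library at a time gave -0.65 to -0.41.

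The arsenite effect of FTH1 in NES was 0.99 with no filter and 1.01 with DESeq2, and passed the threshold in neither. Leaving out 1 library gave 0.75 to 1.33 for FTH1 in NES, 0.48 to 1.30 in G3BP1 and 0.28 to 0.59 in NLS, and 0.18 to 0.28 for BEST1 in G3BP1 and 0.16 to 0.31 in NLS. The small mock differences changed sign without single mock libraries: NLS minus NES was -0.0091 for BEST1 without the first NES library and -0.063 without the first NLS library, and -0.081 for FTH1 without the second NES library. The mock G3BP1 difference of FTH1 was -0.24 without its second library. Over all libraries left out in turn, the highest values of these 3 differences were 0.091, 0.50 and 0.57. The NRF2 list had 2 called genes in place of 1 with total counts, with no filter and with a filter on an average of 1 CPM. The cause of these changes was not tested. Depth limits FTH1 (11 to 34 counts per library) far more than BEST1.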
